A study of Mus musculus with 12 samples.

Results

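Collagen chain genes were examined in cardiac macrophages (Mφ) sorted from mouse hearts under β-adrenergic stimulation. The genes were the rows whose symbol is Col, a number, the letter a and a number, with at least 20 counts summed over the 12 libraries, and 38 of the 44 such symbols qualified, among 24445 gene symbols in the files. Just inside this minimum was Col28a1 with 25 counts, and just outside it was Col9a2 with 16. The other genes under the minimum were Col11a1, Col6a4, Col2a1, Col6a5 and Col26a1.

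Collagens are secreted proteins in which 3 chains wind into a triple helix. Fibrillar collagens (types I, III and V) form the load-bearing fibers of the myocardial interstitium, type IV collagen forms the sheet of basement membranes, type VI forms beaded filaments around cells, and FACIT collagens such as type XIV sit on the surface of fibrils. In the heart, fibroblasts are known as the main source of fibrillar collagen, while endothelial and mural cells make much of the basement membrane. Mφ are better known for clearing collagen and for signalling to the fibroblasts, although collagen transcripts have been described in them.

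The libraries came from adult male C57BL6/J mice carrying an osmotic pump, with 4 mice in each of 3 groups. Control mice (Ct) received saline, mice with early concentric hypertrophy (ECH) received isoproterenol at 30 mg/kg/day for 14 days, and mice with heart failure (HF) received the same dose for 28 days. Vehicle pumps are described for 14 or 28 days, and which of these applies to the Ct mice is not stated. All hearts were digested with collagenase, CD45+ cells were enriched on beads, and live CD14+/CD64+ cells within a CD11b gate were sorted by FACS, so every library is a bulk measurement of a sorted population.

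Total counts per library ranged from 88466559 to 111180291, and 13600 to 15940 genes had at least 1 count. HF library 1, with 13600 genes, and Ct library 2, with 14489, had the fewest. The summed level of 10 Mφ markers, among them Csf1r, Adgre1, Cd14 and Fcgr1, was between 20808 and 26146 CPM (counts scaled by edgeR to a common library size). The numbers in the sample labels put the libraries into 2 apparent sets, one with all Ct libraries and ECH libraries 1 and 2, the other with all HF libraries and ECH libraries 3 and 4. No source states what these sets were. The sample titles also carry codes, whose meaning is not stated either. Ct libraries 1 and 2 share the first part of their code, as do Ct libraries 3 and 4, ECH libraries 3 and 4, and HF libraries 1 and 2, each pair having its own. No set holds both Ct and HF libraries, so that these groups can be compared apart from the sets only through the ECH libraries, in a fit with library set as an added term.

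RefSeq promoter sequences, from 250 bases before to 50 bases after a transcription start in build GRCm38.p6, were matched by symbol to 31 of the 38 genes, in 34 windows. Those of 5 genes are printed because the results turn on these genes. Col4a1 and Col4a2 lie head to head on chromosome 8, on opposite strands with starts 21 bases apart, so that their windows share 78 bases, shown in capitals in both and read from opposite strands.
Col4a1 promoter, chr8:11312777-11313076, minus strand: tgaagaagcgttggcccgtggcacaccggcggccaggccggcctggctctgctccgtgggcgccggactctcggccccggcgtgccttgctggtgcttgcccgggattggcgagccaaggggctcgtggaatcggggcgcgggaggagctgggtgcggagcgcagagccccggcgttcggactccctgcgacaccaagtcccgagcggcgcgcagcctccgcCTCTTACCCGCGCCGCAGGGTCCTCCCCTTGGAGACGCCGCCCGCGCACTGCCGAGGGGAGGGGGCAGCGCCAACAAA
Col4a2 promoter, chr8:11312555-11312854, plus strand: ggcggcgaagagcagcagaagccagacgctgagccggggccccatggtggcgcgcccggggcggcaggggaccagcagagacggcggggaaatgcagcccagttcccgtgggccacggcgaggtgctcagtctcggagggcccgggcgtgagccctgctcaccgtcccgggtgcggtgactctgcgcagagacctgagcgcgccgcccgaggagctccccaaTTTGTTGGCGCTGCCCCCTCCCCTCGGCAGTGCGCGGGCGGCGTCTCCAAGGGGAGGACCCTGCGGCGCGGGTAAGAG
Col1a2 and Col3a1 were among the genes that varied together across libraries, and Col27a1 was the collagen gene that was lower in every isoproterenol library. In their windows, capitals mark matches on either strand to the CCAAT box (letters CCAAT), the TATA box (letters TATAAA) or the GC box (letters GGGCGG).
Col1a2 promoter, chr6:4505368-4505667, plus strand: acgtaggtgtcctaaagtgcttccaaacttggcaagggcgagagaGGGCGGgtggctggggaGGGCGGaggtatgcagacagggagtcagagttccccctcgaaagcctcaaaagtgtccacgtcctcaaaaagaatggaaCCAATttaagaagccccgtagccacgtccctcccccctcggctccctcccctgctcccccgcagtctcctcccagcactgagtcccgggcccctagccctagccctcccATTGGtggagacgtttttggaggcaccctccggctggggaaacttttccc
Col3a1 promoter, chr1:45311288-45311587, plus strand: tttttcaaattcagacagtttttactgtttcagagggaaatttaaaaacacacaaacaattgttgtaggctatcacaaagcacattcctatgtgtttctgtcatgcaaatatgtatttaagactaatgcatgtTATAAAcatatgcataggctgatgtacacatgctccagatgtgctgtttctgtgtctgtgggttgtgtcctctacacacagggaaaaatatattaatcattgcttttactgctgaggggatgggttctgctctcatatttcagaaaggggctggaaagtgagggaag
Col27a1 promoter, chr4:63215162-63215461, plus strand: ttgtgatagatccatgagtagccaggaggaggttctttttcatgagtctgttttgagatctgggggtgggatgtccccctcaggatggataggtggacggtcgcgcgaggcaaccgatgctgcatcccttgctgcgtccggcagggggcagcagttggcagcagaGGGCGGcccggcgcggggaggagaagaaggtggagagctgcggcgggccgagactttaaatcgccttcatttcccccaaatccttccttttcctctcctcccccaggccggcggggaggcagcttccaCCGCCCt
The Col1a2 window held GGGCGG starting 205 and 188 bases before the start, CCAAT 109 bases before it and ATTGG at the start itself. The Col27a1 window held GGGCGG starting 85 bases before the start and CCGCCC 43 bases after it. The Col3a1 window held TATAAA 117 bases before the start and neither of the other letters, and its GC content was 37.7%, against 61% for Col1a2, 61.7% for Col27a1 and 74.0% for Col4a1. Over all 34 windows, GGGCGG or its complement CCGCCC was found in 19 (55.9%), against 35.7% of the 32851 promoters in the table. CCAAT or ATTGG was found in 11 (32.4%, against 37.4% of all promoters) and TATAAA or TTTATA in 5 (14.7%, against 13.6%). Matches of different motifs were counted separately and can share letters at their ends, and a match describes the letters only.

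Collagen transcripts were a small part of these libraries. Summed over the 38 genes, they ranged from 60.5 CPM in HF library 1 to 244 in ECH library 2. Values are given here and for each gene in order of library number. The sum was 79.2, 67.8, 104 and 176 CPM in Ct libraries 1 to 4, 149, 244, 130 and 185 in ECH libraries 1 to 4, and 60.5, 134, 151 and 151 CPM in HF libraries 1 to 4. The ranges of the 3 groups overlapped, and Ct library 4 lay above 2 of the ECH libraries. Of the 38 genes, 13 had counts in all 12 libraries and 11 had counts in 6 or fewer. Of all 38, 19 were detected in HF library 1, 22 in Ct library 2 and 32 in ECH libraries 2 and 4. In a bulk sample, fewer cells of a type and less RNA per cell cannot be told apart.

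Compared per length, Col14a1, a FACIT collagen that decorates fibrils, had the highest level. Its mean level over the 12 libraries was 6.65 CPM per kb of the longest coding transcript, followed by Col3a1 with 3.25, Col4a2 with 2.42, Col4a1 with 2.24 and Col1a2 with 1.91 CPM per kb. The order below Col14a1 depended on the group: by group means, Col4a2 (1.99), Col4a1 (1.56) and Col3a1 (1.52) followed in Ct, and Col3a1 (4.86), Col4a1 (3.49) and Col4a2 (2.93) in ECH, all in CPM per kb. Col14a1 alone made up between 15.3% (ECH library 4) and 51.3% (HF library 1) of the collagen sum. It was at 32.3, 22.8, 43.1 and 52.2 CPM in Ct, 48.1, 88.5, 36.3 and 28.2 in ECH, and 31.0, 39.3, 43.5 and 50.1 in HF. The groups overlapped, and edgeR gave a log2 fold change of 0.42 (SE 0.33, FDR 0.667) for ECH against Ct and of 0.12 (SE 0.33, FDR 0.897) for HF against Ct. The ECH difference rested on ECH library 2, without which the log2 fold change was -0.00089.

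**Figure D1:**
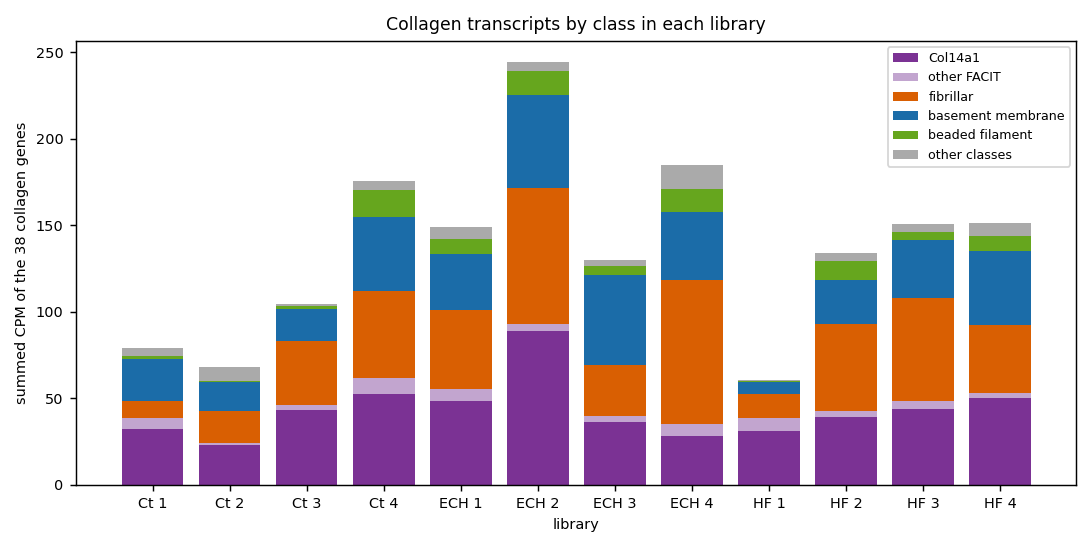
Summed CPM of the 38 collagen genes in each of the 12 libraries, stacked by collagen class with Col14a1 shown apart. The sums run from 60.5 CPM in HF library 1 to 244 in ECH library 2, and the ranges of Ct, ECH and HF overlap.

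To ask whether collagen genes differed between the groups, all genes were fitted together with edgeR's quasi-likelihood test, and a gene was called at FDR < 0.05 with a change of at least 2-fold. Of the 14608 genes tested, 28 were collagen genes, and the other 10 had enough counts for the filter in fewer than 4 libraries. Col25a1, with counts in ECH only, passed the filter through the group in which it was high, and Col5a2, Col10a1 and Col12a1 passed it through ECH and HF libraries.

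In ECH against Ct, 0 of the 28 collagen genes were called, beside 0.356% of all genes tested. The fitted log2 fold change was above 0 in 21 of 28 (75.0%, against 51.1% of all genes), and its median was 1.11, against 0.01 over all genes. At an unadjusted p under 0.05, Col5a2, Col12a1, Col25a1 and Col10a1 were higher in ECH (4 genes, 14.3%, against 6.03% of all genes) and Col27a1 was lower (1 gene, against 5.89%). Every ECH library lay above every Ct library for 3 of these, Col5a2, Col12a1 and Col25a1 (10.7%, against 4.33% of all genes), and below every Ct library for Col27a1 (3.57%, against 3.64%). Col5a2, Col10a1, Col12a1 and Col25a1 entered the test through isoproterenol libraries, so nothing is read from the shares higher in ECH. The share above 0 and the median include these genes, whose direction the filter favored. Other tools called some of these genes: DESeq2 called Col5a2, edgeR's likelihood ratio test called Col5a2, Col25a1 and Col12a1, and limma-voom called Col25a1, beside 1.70%, 1.49% and 0.575% of all genes.

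In HF against Ct, again 0 of 28 were called, beside 0.377% of all genes. The log2 fold change was above 0 in 18 of 28 (64.3%, against 48.8%), with a median of 0.11 against -0.01 over all genes. Col25a1 had no counts in either group and enters here as 0, and over the other 27 genes the median was 0.12. At an unadjusted p under 0.05, Col5a2, Col12a1 and Col6a3 were higher in HF (10.7%, against 7.35%) and Col27a1 was lower (3.57%, against 8.72%). Col5a2 and Col12a1 entered the test through isoproterenol libraries, so nothing is read from the share of higher genes. No collagen gene had all HF libraries above all Ct libraries (4.59% of all genes did), and Col27a1 had all of them below (4.45% of all genes did). DESeq2 and the likelihood ratio test each called Col5a2 here, beside 2.30% and 1.87% of all genes, and limma-voom called 0, beside 0.89%.

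In HF against ECH, 0 of 28 were called, beside 0.0% of all genes by the quasi-likelihood test. The log2 fold change was above 0 in 5 of 28 (17.9%, against 48.0% of all genes), with a median of -0.60 against -0.02. None was higher at an unadjusted p under 0.05 (0 genes, against 2.81% of all genes) or had every HF library above every ECH library (against 3.36%). Col25a1 alone reached an unadjusted p under 0.05, and it was lower in HF (3.57%, against 5.17% of all genes), with every HF library below every ECH library (against 3.56%). The likelihood ratio test called Col25a1, beside 0.329% of all genes, and DESeq2 and limma-voom called 0, beside 0.322% and 0.0% of all genes. Col25a1 entered the test through its ECH counts, so nothing is read from its p, its separation or its call. This comparison shares its ECH libraries with the first and its HF libraries with the second.

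**Figure D2:**
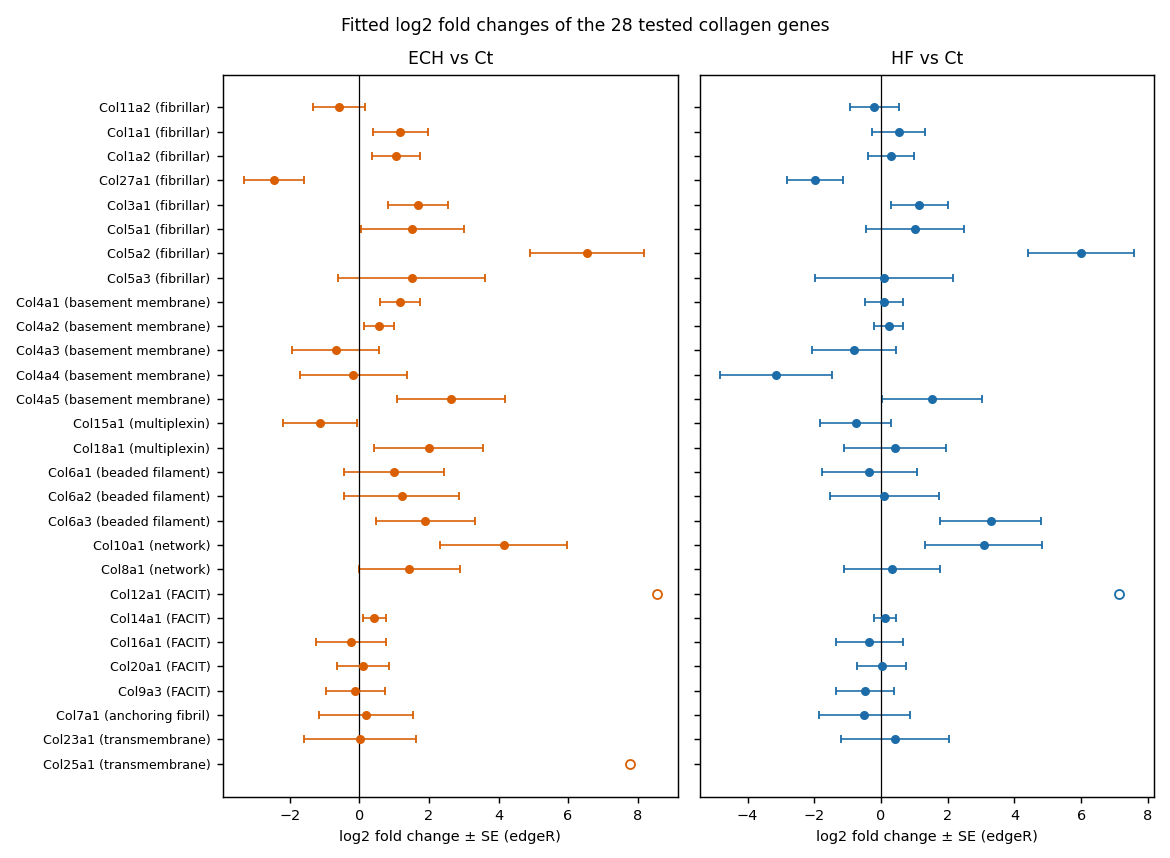
Log2 fold change and SE from edgeR for the 28 tested collagen genes, ECH against Ct on the left and HF against Ct on the right, ordered by class. Open circles are fitted values where 1 group was at 0 in every library, which are no estimate of size, and Col25a1 has no point on the right because both groups were at 0. Above 0 lie 21 values on the left and 18 on the right.

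Among the fibrillar chains, those of types I and III had higher means in ECH than in Ct, with wide overlap. Col3a1, the single chain of type III collagen, was at 1.46, 0.326, 14.9 and 17.1 CPM in Ct, 16, 39.97, 15.5 and 36.8 in ECH, and 8.75, 17.3, 30.1 and 18.7 in HF. Ct libraries 1 and 2, which share the first part of their title code, were the lowest of all. Ct libraries 3 and 4, which share another, lay among the ECH and HF values, and a link with the code was not tested. Its log2 fold change was 1.68 (SE 0.86, FDR 0.477) in ECH and 1.15 (SE 0.85, FDR 0.550) in HF against Ct.

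Col1a1 and Col1a2 encode the chains of type I collagen. Col1a1 was at 0.930, 1.31, 5.49 and 6.46 CPM in Ct, 7.55, 8.25, 2.65 and 13.5 in ECH, and 0.488, 4.94, 9.03 and 5.996 in HF. Col1a2 was at 2.31, 1.815, 8.77 and 15.6 CPM in Ct, 10.85, 17.3, 6.399 and 24.4 in ECH, and 2.72, 13.5, 13.3 and 5.49 in HF. Both had the same low libraries (Ct 1, Ct 2 and HF 1) and the same highest one (ECH 4), and the groups overlapped. The log2 fold changes in ECH against Ct were 1.17 (SE 0.80, FDR 0.613) for Col1a1 and 1.05 (SE 0.69, FDR 0.600) for Col1a2, and in HF against Ct they were 0.53 (SE 0.79, FDR 0.796) and 0.29 (SE 0.68, FDR 0.878).

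Type V collagen, with Col5a1 and Col5a2 as its main chains, nucleates collagen fibrils. Col5a2 was at 0, 0, 0.131 and 0 CPM in Ct, 1.75, 4.52, 1.42 and 5.13 in ECH, and 0.0383, 3.63, 2.78 and 2.23 in HF. Col5a2 lies at chr1:45374321-45503282 on the minus strand (GRCm38), near Col3a1 on the same chromosome. It was close to absent from every Ct library, present in all ECH libraries and in 3 of 4 HF libraries, and HF library 1 fell within the Ct range. The log2 fold change was 6.55 (SE 1.63, FDR 0.107) in ECH and 5.98 (SE 1.59, FDR 0.123) in HF against Ct by the quasi-likelihood test, with FDRs from 7.1e-05 to 0.795 and from 0.00042 to 0.291 over the other settings. Both sizes rested on the 13 counts of Ct library 3, without which the fitted values were 11.39 and 10.83 against a group at 0 in every library, which is no estimate of size. Within the set that holds Ct and ECH libraries 1 and 2, the ECH difference was 6.50, with an FDR of 0.795.

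Exact two-sided permutation tests were run on the 18 genes given here with values in every library, and 0.0286 is the smallest p that 4 against 4 libraries allow. Over the 54 such tests, 0 passed at an adjusted p under 0.05, the lowest adjusted p being 0.257. A pass would need many of the 54 tests at that smallest p, so nothing is read from this 0. Col5a2, Col6a3, Col10a1, Col12a1, Col25a1 and Col27a1 had an unadjusted p under 0.05 in these libraries, so their exact p is no separate evidence and is not given. Col5a1 was at 0.0800, 0, 1.45 and 2.64 CPM in Ct, 4.51, 4.67, 0.763 and 2.03 in ECH, and 0.00957, 5.58, 2.05 and 0.804 in HF. Its groups overlapped, and the log2 fold change was 1.52 (SE 1.48, FDR 0.739) in ECH against Ct. Across the 12 libraries Col5a1 and Col5a2 had r = 0.70 (adjusted permutation p = 0.029, in the family of 21 relations given with the correlations) and rho = 0.62 (adjusted permutation p = 0.056), with 0.71 and 0.93 within the sets and 0.53 without Ct library 2 and HF library 1.

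Col27a1, a fibrillar collagen best known from cartilage, had lower values in the isoproterenol groups. The gene lies at chr4:63214004-63334991 on the plus strand (GRCm38). It was at 4.55, 9.84, 3.58 and 6.50 CPM in Ct, 0.980, 1.81, 0.996 and 0.622 in ECH, and 0.0287, 1.81, 1.77 and 2.56 in HF. All 8 isoproterenol libraries lay below all 4 Ct libraries, as they did for 1.51% of all genes tested, and 0 collagen genes had them all above (1.3% of all genes did). The mean was 6.12 ± 2.76 CPM in Ct, 1.10 ± 0.50 in ECH and 1.54 ± 1.07 CPM in HF (SD, n = 4). The log2 fold change was -2.47 (SE 0.86, FDR 0.268) in ECH and -1.99 (SE 0.85, FDR 0.279) in HF against Ct, so neither difference passed. Leaving out HF library 1 took the FDR of the ECH comparison to 0.0493, and no other setting run called Col27a1 (FDR 0.0493 to 0.795 over all of them), and within the set shared by Ct and ECH the log2 fold change was -2.14 (FDR 0.795). With library set as an added term, the log2 fold change was -2.13 (FDR 0.694) in ECH and -1.20 (FDR 0.775) in HF.

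**Figure D3:**
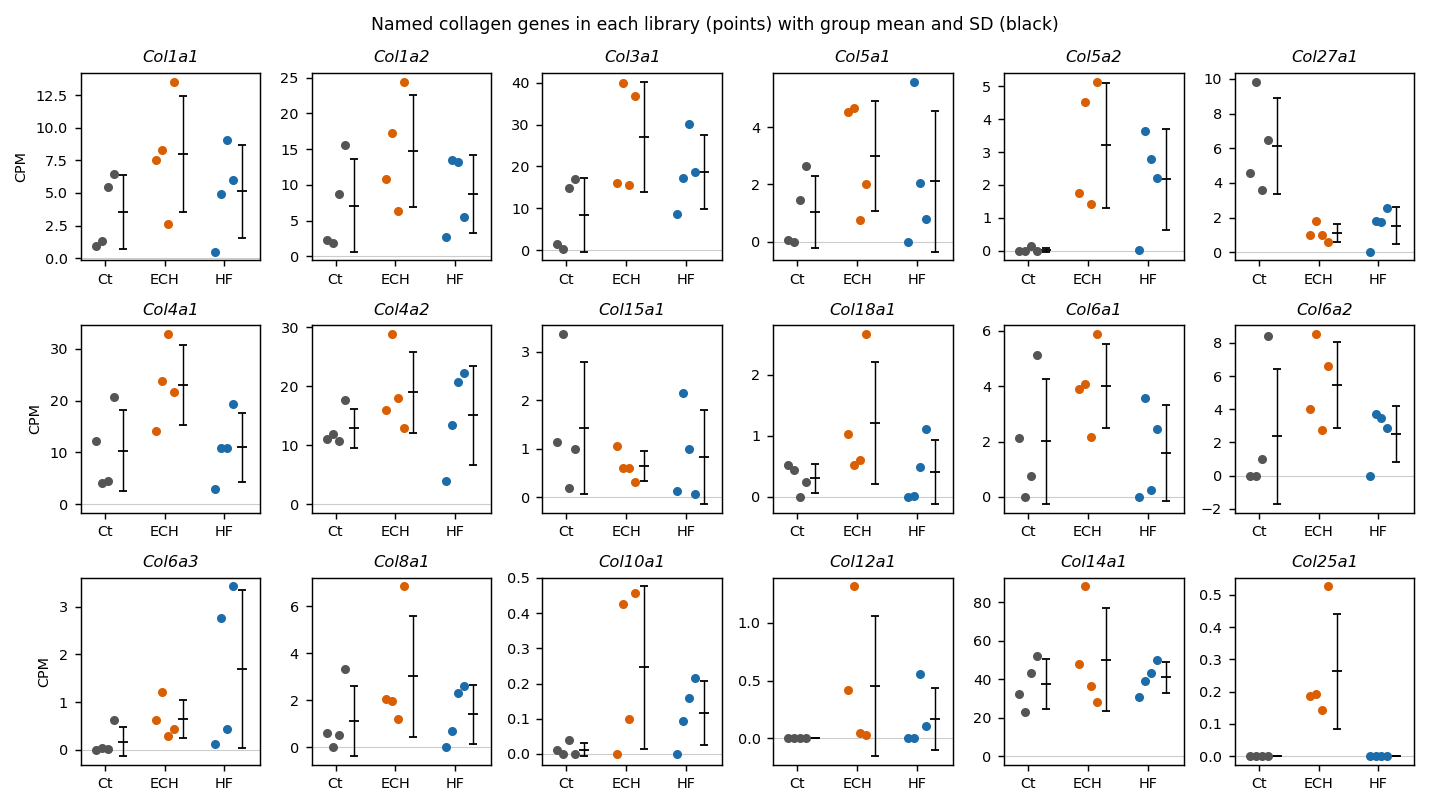
CPM of 18 collagen genes in each library, one panel per gene with its own linear axis, points for the 4 libraries of Ct, ECH and HF, and the group mean with SD in black. Col27a1 sits between 3.58 and 9.84 CPM in Ct and below 2.6 CPM in all isoproterenol libraries, Col5a2 lies near 0 in all Ct libraries, and Col25a1 has counts in ECH only.

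Col4a1 and Col4a2, whose products join in the most widespread form of type IV collagen, had higher means in ECH than in both other groups. Col4a1 was at 12.2, 3.99, 4.43 and 20.7 CPM in Ct, 14.1, 23.7, 32.9 and 21.7 in ECH, and 2.99, 10.8, 10.8 and 19.4 in HF. Only Ct library 4 and HF library 4 reached the ECH range. The log2 fold change was 1.16 (SE 0.57, FDR 0.451) in ECH against Ct and -1.07 (SE 0.57, FDR 0.671) in HF against ECH, with exact permutation p = 0.0571 in each.

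Col4a2 was flatter, at 10.97, 11.9, 10.7 and 17.7 CPM in Ct, 16.03, 28.8, 17.97 and 12.9 in ECH, and 3.86, 13.3, 20.7 and 22.2 in HF. Its log2 fold change was 0.56 (SE 0.43, FDR 0.659) in ECH against Ct and 0.23 (SE 0.43, FDR 0.844) in HF against Ct. The annotated exons of the pair overlap on opposite strands, and whether the counting used strand is stated in no source used here, so reads in that overlap cannot be assigned with certainty.

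Col15a1 and Col18a1 encode multiplexins of the basement membrane zone, and Col18a1 is the precursor of endostatin. Col15a1 was at 1.15, 3.36, 0.192 and 0.987 CPM in Ct, 1.05, 0.611, 0.601 and 0.311 in ECH, and 0.124, 2.15, 0.987 and 0.0804 in HF, with a log2 fold change of -1.14 (SE 1.06, FDR 0.724) in ECH against Ct. Col18a1 was at 0.530, 0.442, 0 and 0.242 CPM in Ct, 1.04, 0.524, 0.610 and 2.67 in ECH, and 0, 0.0185, 0.494 and 1.11 in HF, with a log2 fold change of 1.99 (SE 1.57, FDR 0.665) in ECH against Ct. In both genes the groups overlapped.

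The chains of type VI collagen, which assemble as a heterotrimer of Col6a1, Col6a2 and Col6a3 products, gave low or no counts in some libraries. Col6a1 was at 2.13, 0, 0.758 and 5.12 CPM in Ct, 3.89, 4.06, 2.16 and 5.88 in ECH, and 0, 3.58, 0.261 and 2.45 in HF. Col6a2 was at 0, 0, 1.01 and 8.425 CPM in Ct, 4.01, 8.53, 2.73 and 6.58 in ECH, and 0, 3.69, 3.48 and 2.87 in HF. Ct library 2 and HF library 1 had no count of either, and 0 counts in these libraries allow up to 0.0349 and 0.0287 CPM. The ECH against Ct log2 fold changes were 0.998 (SE 1.44, FDR 0.835) and 1.21 (SE 1.66, FDR 0.824). Without Ct library 4 they were 2.05 and 4.01, and without Ct library 2 they were 0.58 and 0.80.

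Col6a3 was at 0, 0.0465, 0.0101 and 0.629 CPM in Ct, 0.634, 1.21, 0.296 and 0.432 in ECH, and 0.115, 2.76, 0.447 and 3.43 in HF. It was highest in HF libraries 2 and 4, and Ct library 4 lay above 2 HF libraries. The log2 fold change was 3.29 (SE 1.51, unadjusted p = 0.0484, FDR 0.308) in HF and 1.90 (SE 1.44, FDR 0.653) in ECH against Ct by edgeR. Without Ct library 4 these were 6.43 and 5.03, with FDRs of 0.151 and 0.215.

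Col8a1, a short-chain collagen of vessel walls and remodelling tissue, was at 0.620, 0, 0.526 and 3.32 CPM in Ct, 2.05, 1.99, 1.19 and 6.86 in ECH, and 0, 0.692, 2.32 and 2.61 in HF. Its log2 fold change was 1.44 (SE 1.46, FDR 0.753) in ECH against Ct. Col10a1, the collagen of hypertrophic cartilage, was at 0.0100, 0, 0.0404 and 0 CPM in Ct, 0, 0.427, 0.0987 and 0.458 in ECH, and 0, 0.0923, 0.158 and 0.215 in HF, or at most 53 counts in a library. The groups overlapped, the log2 fold change in ECH against Ct was 4.15 (SE 1.83, unadjusted p = 0.0404, FDR 0.391), and Col10a1 shares exons with Nt5dc1 on the opposite strand.

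Col12a1 and Col25a1 were at 0 in every Ct library. Col12a1, a FACIT collagen of tissues under tension, was at 0.416, 1.32, 0.0449 and 0.0259 in ECH, from 3 to 136 counts, and at 0, 0, 0.559 and 0.107 CPM in HF. ECH library 2 and HF library 3 were the highest, and set against a floor of 3 counts in each Ct library the ECH mean was at least 14.5-fold higher and the HF mean at least 5.36-fold higher. Each bound rested on 1 library, being 5.22-fold without ECH library 2 and 1.15-fold without HF library 3. Col25a1, a transmembrane collagen mainly described in neurons and muscle, was at 0.188, 0.194, 0.144 and 0.527 in ECH, from 16 to 61 counts, and at 0 in all 8 other libraries. Against the same floor, ECH was at least 8.47-fold higher than Ct and at least 9.47-fold higher than HF, with bounds of 5.64-fold and 6.31-fold without ECH library 4. By the quasi-likelihood test the FDR for ECH against Ct was 0.236 for Col12a1 and 0.140 for Col25a1. Over other settings it ran from 0.0272 to 0.750 and from 0.00074 to 0.828, and DESeq2 gave Col25a1 no adjusted p.

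The remaining tested collagen genes, Col5a3, Col11a2, Col4a3, Col4a4, Col4a5, Col7a1, Col9a3, Col16a1, Col20a1 and Col23a1, had log2 fold changes between -0.68 (Col4a3) and 2.62 (Col4a5) in ECH against Ct, with FDRs of at least 0.550. In HF against Ct they lay between -3.15 (Col4a4) and 1.53 (Col4a5), with FDRs of at least 0.381. Col4a4, a chain of the glomerular and cochlear form of type IV collagen, named after its values were seen, had the largest of these differences and was at 0.110, 0.396, 0.708 and 1.05 CPM in Ct and at 0, 0, 0.233 and 0.0179 CPM in HF, with 1 HF library inside the Ct range. The 10 untested genes had 25 to 248 counts in all, in 1 to 7 libraries, and did not exceed 1.73 CPM in any library.

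To see how the genes varied together, Spearman's rho of log2(CPM + 0.1) was computed for all 378 pairs of the 28 tested genes over the 12 libraries. The median rho was 0.25, 279 pairs were above 0, 28 reached 0.7 and 0 reached -0.7. The highest values were 0.92 for Col1a2 with Col6a2, 0.87 for Col6a1 with Col6a2 and 0.87 for Col3a1 with Col5a2, and the lowest was -0.54 for Col5a2 with Col27a1. By the median of its rho with the other genes, Col6a2 came first (0.52), followed by Col1a1 (0.51), Col8a1 (0.50) and Col3a1 (0.50), while Col11a2 (-0.28), Col27a1 (-0.16) and Col15a1 (-0.08) came last. The points share library depth and the libraries with few genes detected, so these values are descriptions.

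**Figure D4:**
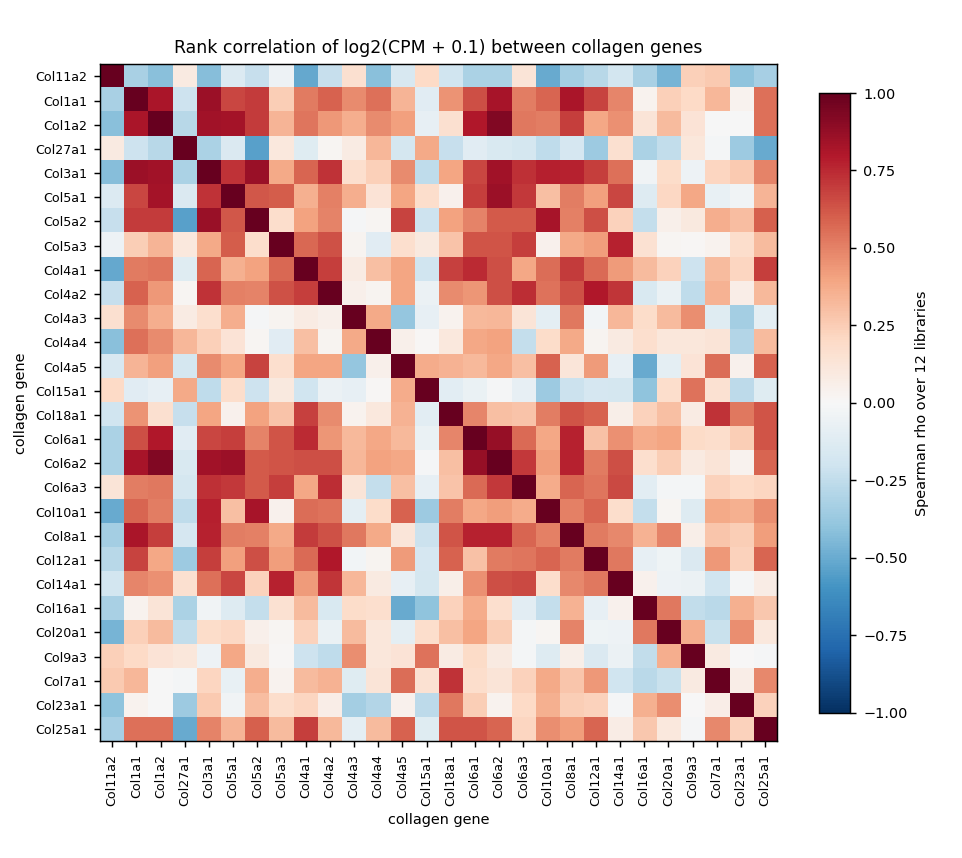
Spearman's rho of log2(CPM + 0.1) over the 12 libraries for each pair of the 28 tested collagen genes, ordered by class, red for positive and blue for negative values. The highest value is 0.92 for Col1a2 with Col6a2 and the lowest -0.54 for Col5a2 with Col27a1, and most of the values are above 0.

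A family of 21 relations was then tested by permutation over the libraries, with Benjamini-Hochberg adjustment. Of these, 12 had an adjusted p under 0.05 for Pearson's r and 11 for rho. Without Ct library 2 and HF library 1, the libraries with the fewest genes detected, 6 of 21 did.

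The 2 chains of type I collagen varied together, with r = 0.90 (adjusted permutation p = 0.00091) and rho = 0.82 (adjusted permutation p = 0.0084) for Col1a1 and Col1a2. Without the 2 libraries farthest from the median of Col1a1, r was 0.89, and within the 2 library sets it was 0.96 and 0.88. Col3a1 and Col1a2 had r = 0.86 (adjusted permutation p = 0.00084) and rho = 0.84 (adjusted permutation p = 0.0075), r = 0.81 without the 2 farthest libraries, and 0.97 and 0.90 within the sets. Both relations were among those that held without Ct library 2 and HF library 1, with r of 0.89 and 0.86.

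For the chains of type IV collagen, Col4a1 and Col4a2, r was 0.75 (adjusted permutation p = 0.011) and rho 0.69 (adjusted permutation p = 0.030), with 0.78 and 0.81 within the sets. Without Ct library 2 and HF library 1, which are also the 2 farthest libraries, r was 0.57 and the adjusted permutation p was 0.170, and on deviations from the group means r was 0.73 (adjusted permutation p = 0.017). For Col6a1 and Col6a2, r was 0.74 (adjusted permutation p = 0.025) and rho 0.87 (adjusted permutation p = 0.0075), and r was 0.32 without the same 2 libraries. Across classes, Col1a1 with Col4a1 (r = 0.58, adjusted permutation p = 0.071, rho = 0.52, adjusted permutation p = 0.118, and r = 0.42 without the 2 farthest libraries) did not pass, with 0.47 and 0.66 within the sets.

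Marker genes of other heart cells were measured in the same libraries. The counts of called genes below are beside 0.356%, 0.377% and 0.0% of all genes called in ECH against Ct, HF against Ct and HF against ECH, so that 0 called in a list of this size is near the background. All 16 listed fibroblast markers were present and tested, 0 were called in any comparison, and their summed level was 91.8 to 271 CPM in Ct, 110 to 495 in ECH and 168 to 312 CPM in HF, with medians of 145, 244 and 206 CPM. Of the 16, 11 had a log2 fold change above 0 in ECH against Ct (median 0.93) and 12 in HF against Ct (median 0.30). The collagen genes, including those that entered the test through isoproterenol libraries, had medians of 1.11 and 0.11, and all genes 0.01 and -0.01. Among the fibroblast markers Postn, a marker of activated fibroblasts, had the lowest p, with a log2 fold change of 3.44 in ECH against Ct (SE 1.21, FDR 0.274). It ran from 2.61 to 4.50 over other settings, and ECH library 4 was the highest library at 48.9 CPM. All 12 endothelial markers were tested with 0 called, and they summed to 32.4 to 66.8 CPM in Ct, 49.998 to 71.5 in ECH and 39.5 to 71.6 CPM in HF, with 8 of 12 above 0 in ECH against Ct (median 0.48) and 6 of 12 in HF against Ct (median 0.01). The 10 mural markers (7 tested) summed to 5.52 to 16.5 CPM in Ct, 7.53 to 22.1 in ECH and 6.44 to 10.01 in HF, with 0 called. The 10 cardiomyocyte markers summed to 88.9 to 253 CPM in Ct, 86.5 to 171 in ECH and 69.5 to 123 in HF, with 0 called. Of these, 1 of 10 was above 0 in ECH against Ct (median -0.46) and 1 of 10 in HF against Ct (median -0.65). The 7 Schwann and mesothelial markers (2 tested) summed to at most 1.28 CPM, also with 0 called. No marker of these lists was at 0 in all libraries.

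The levels of Col1a2, Col3a1 and Col4a1 were set against the fibroblast and endothelial sums. Abundant markers weigh most in such sums. Eng was at 14.0 to 35.1 CPM, within endothelial sums of 32.4 to 71.6 CPM. Dcn was at 21.2 to 309 CPM, within fibroblast sums of 91.8 to 495 CPM. The fibroblast sum had r = 0.77 with Col1a2 (adjusted permutation p = 0.015, rho = 0.78, adjusted permutation p = 0.013), 0.62 without the 2 libraries farthest from its median, and 0.76 and 0.81 within the sets. With Col4a1 its r was 0.21 (adjusted permutation p = 0.527, rho = 0.20, adjusted permutation p = 0.532), 0.12 without the 2 farthest libraries, and 0.45 and -0.01 within the sets. The endothelial sum had r = 0.88 with Col4a1 (adjusted permutation p = 0.00091, rho = 0.77, adjusted permutation p = 0.013), 0.78 without the 2 farthest libraries, and 0.88 and 0.89 within the sets. With Col1a2 it had r = 0.52 (adjusted permutation p = 0.101, rho = 0.24, adjusted permutation p = 0.465), -0.14 without the 2 farthest libraries, and 0.71 and 0.20 within the sets. For Col3a1, r with the fibroblast sum was 0.59 (adjusted permutation p = 0.071, rho = 0.74, adjusted permutation p = 0.018), 0.40 without the 2 farthest libraries, and 0.63 and 0.77 within the sets. Its r with the endothelial sum was 0.63 (adjusted permutation p = 0.049, rho = 0.50, adjusted permutation p = 0.128), 0.12 without the 2 farthest libraries, and 0.75 and 0.35 within the sets. This relation did not pass on deviations from the group means (r = 0.59, adjusted permutation p = 0.070) or on log2(CPM + 1) (r = 0.61, adjusted permutation p = 0.061). The difference between these correlations, and the part of other cells in the collagen levels, was not tested.

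**Figure D5:**
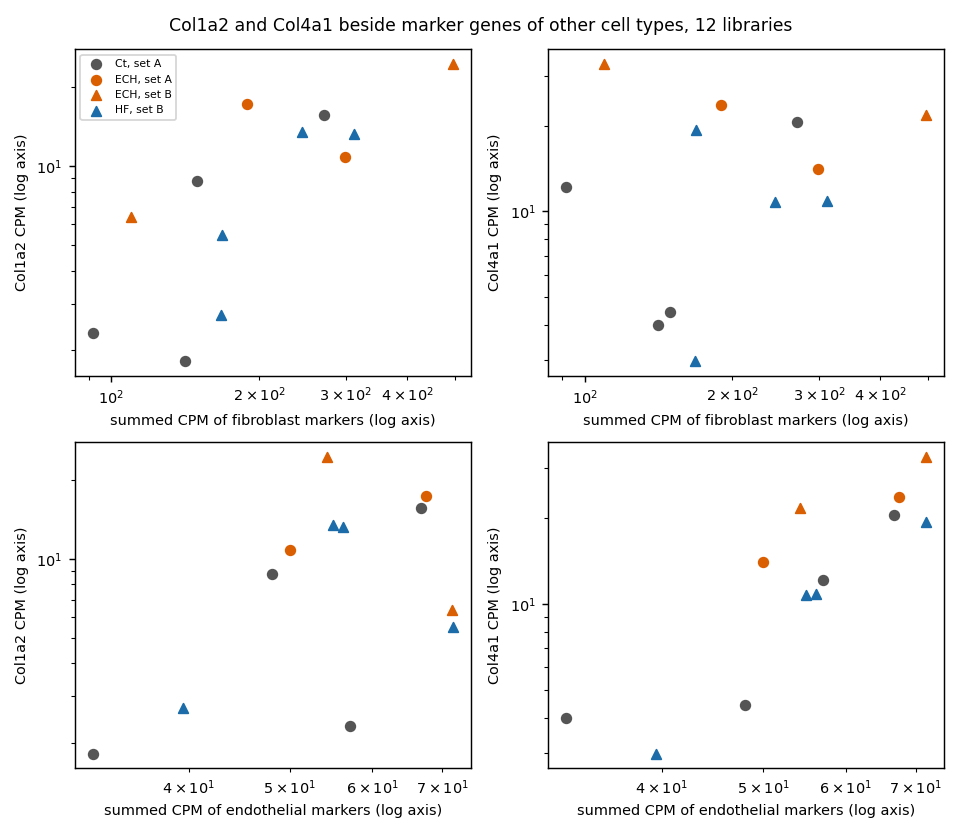
CPM of Col1a2 (left) and Col4a1 (right) against the summed CPM of 16 fibroblast markers (top) and 12 endothelial markers (bottom) in the 12 libraries, on log axes, with color for group and shape for apparent library set. Col1a2 is higher where the fibroblast sum is higher (r = 0.77) and so is Col4a1 with the endothelial sum (r = 0.88), while Col4a1 is spread widely over the fibroblast sum (r = 0.21).

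Genes whose products modify, bind or sit beside collagen were examined in the same fit. The 30 genes of collagen processing and crosslinking, of which 27 were tested, summed to 1020 to 1363 CPM in Ct, 1412 to 1682 in ECH and 1420 to 1524 CPM in HF. Of these, 0 were called in ECH against Ct (0.356% of all genes were) and 1, P4ha2, rose in HF against Ct (0.377% of all genes were called). P4ha2 encodes a subunit of prolyl 4-hydroxylase, which hydroxylates the chains so that the helix is stable, and it was at 3.24, 4.36, 5.27 and 5.15 CPM in Ct, 11.02, 10.55, 5.555 and 7.17 in ECH, and 21.2, 12.5, 11.2 and 15.8 in HF. All HF and all ECH libraries lay above all Ct libraries, with a log2 fold change of 1.75 (SE 0.31, FDR 0.0284) in HF and 0.93 (SE 0.30, FDR 0.232) in ECH by edgeR. The HF call held in 14 of 22 other settings and was lost without Ct library 1, Ct library 4 or any single HF library, without Ct library 2 and HF library 1 together, and with the replicate number as a block (FDR 8.5e-06 to 0.102 over the settings). Plod1, a lysyl hydroxylase, had a log2 fold change of 0.71 (SE 0.18, FDR 0.119) in ECH, and Crtap, a partner of prolyl 3-hydroxylase, one of 0.69 (SE 0.20, FDR 0.534) in HF against ECH. Crtap was called in HF against ECH with library set as a covariate (1.10, FDR 0.0083) and within the set shared by HF and ECH (1.10, FDR 0.015), and in HF against Ct with the covariate (1.21, FDR 0.036), and its FDRs reached 1.0 and 0.411 in the remaining settings. Adamts14, which trims the ends of procollagen, had one of 4.43 (SE 1.52, FDR 0.550) in HF against ECH, with HF library 1 the highest.

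Of 11 listed collagen receptors, 10 were tested and 0 were called in any comparison, near the shares of all genes called (0.356%, 0.377% and 0.0%), and they summed to 2136 to 3056 CPM. Lair1, an inhibitory receptor for collagen on leukocytes, had the lowest p, with a log2 fold change of -0.64 (SE 0.23, FDR 0.276) in ECH against Ct. The 11 basement membrane partners (laminins, nidogens, perlecan, agrin and Sparc) also held 0 called genes by the quasi-likelihood test, against the same shares. Sparc, which binds type IV collagen, was at 10.5, 9.63, 18.2 and 15.8 CPM in Ct, 23.97, 20.6, 29.8 and 37.97 in ECH, and 17.6, 14.1, 23.3 and 20.6 in HF, with every ECH library above every Ct library and an FDR of 0.107 for a log2 fold change of 1.05 (SE 0.26). Sparc was called in this comparison in 2 of 23 other settings, the likelihood ratio test and DESeq2, with FDRs from 0.00999 to 0.947 over all of them.

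Of the 12 fibril partners in the files, 11 were tested, 1 rose in each comparison with Ct and 0 were called in HF against ECH, beside 0.356%, 0.377% and 0.0% of all genes called in ECH against Ct, HF against Ct and HF against ECH. Thbs1, the matrix protein thrombospondin 1, was at 91.6, 94.4, 51.8 and 53.0 CPM in Ct, 232, 329, 343 and 216 in ECH, and 86.8, 144, 126 and 260 in HF. It rose in ECH against Ct, with no overlap (log2 fold change 1.94, SE 0.32, FDR 0.0202), and had a log2 fold change of 1.08 (SE 0.32, FDR 0.144) in HF, where 2 of 22 other settings called it. The ECH call held in 17 of 23 other settings (FDR 2.2e-07 to 0.197) and was lost without Ct library 1, Ct library 4 or ECH library 3, with the replicate block, with library set as a covariate and within the shared set. Fn1, fibronectin, on which collagen fibrils are laid down, was at 90.5, 72.2, 151 and 87.6 CPM in Ct, 171, 322, 397 and 275 in ECH, and 178, 276, 357 and 625 in HF. Every isoproterenol library lay above every Ct library, and Fn1 rose in HF against Ct (log2 fold change 1.84, SE 0.37, FDR 0.0467), with a log2 fold change of 1.54 (SE 0.36, FDR 0.095) in ECH, where 2 of 23 other settings called it. The HF call held in 8 of 22 other settings (FDR 1.9e-05 to 0.319), and it was lost without most single libraries, with the replicate block and with library set as a covariate.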

How the data were processed

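Mφ RNA was amplified with SMART-Seq v4 and sequenced as 2 × 75 bp pairs. The authors trimmed reads (Trimmomatic), aligned them to mm10 (TopHat2) and deposited featureCounts gene counts, raw, in 1 file per library. Tool versions, annotation and strand setting are named in no source used here. Counts were scaled by TMM, filtered by filterByExpr and fitted for 3 group means over 12 libraries with edgeR 4.0.16 (quasi-likelihood, R 4.3.3), with Benjamini-Hochberg adjustment over all 14608 genes tested. The biological coefficient of variation was 60.8%. CPM values are TMM-scaled. The pipeline was tested on simulated data. Levels per kb and exon overlaps used the GENCODE annotation of GRCm38. Single genes were also compared by exact permutation of log2(CPM + 0.1), and correlations used 100000 permutations. DESeq2 1.42.0, limma 3.58.1, other filters, scalings, library sets and leaving out each library were the alternatives. An amplified read is not an independent molecule, so floors of 3 counts cover counting error only. The collagen genes and all gene lists were chosen with earlier results of these data known. Genes given with values in every library were Col1a1, Col1a2, Col3a1, Col5a1, Col5a2, Col4a1, Col4a2, Col15a1, Col18a1, Col6a1, Col6a2, Col6a3, Col14a1 and Col8a1, any member with an unadjusted p under 0.05, and the 5 highest per kb. From the other lists, genes called and up to 4 with the lowest p were eligible for naming.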

Additional observations from a re-analysis of the deposited data

Results flagged for a closer look

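Each of the 18 collagen genes was checked in each group for a library standing apart by Dixon's criterion. In 1 of the 51 gene and group pairs examined, 3 libraries were tied at 0, which fixes the result. Of the other 50, 3 were singled out, and chance singles out about 1 in 20. HF library 1 was the lowest of its group in all 3: Col27a1 at 0.0287 CPM, against 1.77 to 2.56 CPM in the other HF libraries, Col5a2 at 0.0383 CPM, against 2.23 to 3.63 CPM, and Col6a2 at 0 CPM, against 2.87 to 3.69 CPM. This library also had the fewest genes detected (13600) and the fewest collagen genes (19 of 38). The pair fixed by ties was Col5a2 in Ct, at 0.131 CPM in library 3 and at 0 in the others, and nothing is read from it.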

How the results depend on the processing

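By edgeR's quasi-likelihood test 0 collagen genes were called in each comparison. DESeq2 called 1 in ECH against Ct and 1 in HF against Ct (Col5a2 in both), the likelihood ratio test called 3, 1 and 1 in ECH against Ct, HF against Ct and HF against ECH, and limma-voom called 1 in ECH against Ct. Leaving out single libraries gave 0 to 1 in ECH against Ct and in HF against Ct: without Ct library 3, Col5a2 was called in both (FDR 0.0387 and 0.0325), where all remaining Ct libraries were at 0, and without HF library 1, Col27a1 was called in ECH against Ct. The other scalings, filters and fits, including the fit of library set as a covariate and that without Ct library 2 and HF library 1, called 0. Across all genes, the calls in ECH against Ct and HF against Ct went from 52 and 55 to 248 and 336 (DESeq2), 218 and 273 (likelihood ratio test), 84 and 130 (limma-voom), 22 and 208 (library set as a covariate) and 8 and 41 (the compared groups alone), and ranged from 11 to 95 and from 15 to 103 when single libraries were left out. In HF against ECH they went from 0 to 272 with library set as a covariate and to 370 within 1 set, where ECH against Ct gave 1. The comparison of HF with Ct has no value within a set.

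Replicate numbers are shared by the groups, but deviations of same-numbered libraries correlated between -0.0758 and 0.0833, so they share only a number. With the replicate number as a block, 0 collagen genes were called in each comparison, and the calls over all genes were 22 in ECH against Ct and 18 in HF against Ct.

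Of 54 log2 fold changes of the 18 genes, 16 changed sign under some setting, 1 of them in ECH against Ct. The causes were not tested. With library set as a covariate, HF against Ct gave 0.096 for Col15a1, -0.65 for Col18a1, -0.44 for Col4a1 and -0.66 for Col8a1, and HF against ECH gave 2.20 for Col12a1, 0.34 for Col14a1 and 0.60 for Col5a1. Within the set shared by HF and ECH, the last 3 were 2.20, 0.35 and 0.60. limma-voom gave 0.46 for Col10a1 and -0.16 for Col15a1 in HF against ECH, the replicate block gave -0.27 for Col15a1 in HF against ECH and -0.39 for Col18a1 in HF against Ct, and leaving out Ct library 2 and HF library 1 gave 0.46 for Col15a1 in HF against Ct. Leaving out single libraries, HF against Ct ranged from -0.054 to 0.32 for Col14a1, -1.84 to 0.11 for Col15a1, -0.82 to 0.83 for Col18a1, -0.025 to 1.02 for Col1a2, -0.33 to 0.68 for Col4a1, -0.023 to 0.55 for Col4a2, -0.13 to 2.05 for Col5a1, -1.15 to 0.71 for Col6a1, -0.32 to 2.89 for Col6a2 and -0.15 to 1.87 for Col8a1. HF against ECH ranged from -3.60 to 0.040 for Col12a1, -0.49 to 0.12 for Col14a1 and -0.69 to 0.76 for Col15a1. ECH against Ct ranged from -0.00089 to 0.62 for Col14a1, 0.64 to 2.98 for Col8a1, -1.51 to -0.27 for Col15a1, 0.58 to 2.05 for Col6a1, 0.80 to 4.01 for Col6a2 (5.23 with limma-voom) and 1.40 to 5.03 for Col6a3. It also ranged from 3.67 to 5.75 for Col10a1, 1.11 to 2.55 for Col5a1 and 0.69 to 1.78 for Col1a2.

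Of the called partner genes, P4ha2 was called in HF against Ct in 14 of 22 alternatives (log2 fold change 1.52 to 2.51, FDR 8.5e-06 to 0.102), Thbs1 in ECH against Ct in 17 of 23 (1.81 to 2.10, FDR 2.2e-07 to 0.197) and Fn1 in HF against Ct in 8 of 22 (1.39 to 2.11, FDR 1.9e-05 to 0.319). The replicate block lost all 3 calls, and library set as a covariate lost those of Thbs1 and Fn1. Among the other genes of these lists, library set as a covariate turned HF against Ct to -0.0059 for Plod1, 0.38 for Lair1 and -0.12 for Sparc and ECH against Ct to 0.11 for Crtap (0.10 within 1 set). Leaving out single libraries, HF against ECH ranged from -0.010 to 0.43 for Lair1 and from -0.11 to 0.53 for Fn1.

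Of 21 relations, 12 passed, 12 passed on deviations from the group means, 9 on log2(CPM + 1) and 6 without Ct library 2 and HF library 1, a setting chosen after seeing the data. A minimum of 1 count gave 42 collagen genes and one of 100 counts gave 33. With 4 libraries a group and a coefficient of variation of 60.8%, differences of low-count genes such as Col10a1, Col12a1 and Col25a1 are poorly measured.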
